A study of Mus musculus with 12 samples.

Results

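The change that 4-hydroxytamoxifen (OHT) treatment brought to wild-type mouse embryonic stem cells (mESC) was read from 4 of the 12 RNA libraries of the series. Members were chosen by their labels: the 2 female Rif1+/+ Rs26+/CreERT lines 5.3 and 5.16 as mESC after 2 days of OHT, and the same 2 lines as mESC without OHT, labelled pre deletion. These are called WT after OHT and WT before OHT. Of 24391 gene symbols in the count table, 17115 passed the filter on low counts and are described. The background of all lines is a cross of C57BL/6J-129/SvJ with Mus musculus castaneus, and each group holds 1 library of each line. The remaining 8 libraries are the Rif1F/F lines 15.10 and 16.9 in both conditions, and embryoid bodies of 2 days from all 4 lines after OHT. The Rif1F/F lines carry floxed Rif1, and their libraries after OHT are labelled KO. The labelled genotype of the WT lines holds no floxed Rif1, but they do carry the same CreERT, a Cre recombinase fused to an oestrogen receptor part and placed at Rosa26. The change in WT therefore holds whatever the drug, active Cre, 2 more days of culture and a different sequencing run did together. No vehicle-treated library and no line without CreERT was used here. The description labels open with a code, taken here to be that of the flow cell, which was shared by all mESC libraries after OHT and differed from that of all libraries before OHT, and so treatment and flow cell cannot be told apart.

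OHT is the active form of tamoxifen. It binds oestrogen receptors and, in cells with CreERT, lets the fusion protein enter the nucleus and cut loxP sites. Tamoxifen-like drugs are also known to touch sterol metabolism. The cultures grew in serum with leukemia inhibitory factor (LIF), which acts through STAT3, and with inhibitors of MEK and GSK3. MEK drives the kinase cascade that switches on the immediate early genes within minutes of a stimulus, among them the AP-1 and EGR transcription factors. mESC have a short G1 phase, and E2F factors drive genes for DNA replication in their fast cycle.

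The promoters below are those of named genes of 2 groups that went opposite ways, immediate early genes and genes of the replication origin and fork. Only promoters with a match to the motifs below are shown, so Jun and Rfc5, also named, are left out. Windows of 250 bases before to 50 after a RefSeq start (GRCm38.p6) were searched on both strands. 16 of the 20 immediate early genes tested had a window, 22 windows in all. A CArG box, the site of serum response factor, was present in 5 of the 22 windows (22.7%), 4 of which are overlapping or neighbouring starts of Egr2, against 1.63% of all 32851 windows. The cAMP response element TGACGTCA was in 3 windows (13.6%), against 1.79% of all. In Zfp36, which encodes an RNA-binding protein that shortens the life of cytokine mRNAs, the capitals mark a CArG box that begins 58 bases before the start. In Dusp1, a phosphatase that switches off MAP kinases, and in Maff, a small MAF transcription factor, they mark TGACGTCA, which begins 143 and 29 bases before the start.
Zfp36, chr7:28379229-28379478, minus strand: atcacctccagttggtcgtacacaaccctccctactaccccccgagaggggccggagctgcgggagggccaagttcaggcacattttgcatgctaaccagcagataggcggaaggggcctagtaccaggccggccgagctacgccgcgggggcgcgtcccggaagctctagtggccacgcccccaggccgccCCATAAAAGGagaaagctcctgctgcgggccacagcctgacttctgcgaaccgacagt
Dusp1, chr17:26508473-26508722, minus strand: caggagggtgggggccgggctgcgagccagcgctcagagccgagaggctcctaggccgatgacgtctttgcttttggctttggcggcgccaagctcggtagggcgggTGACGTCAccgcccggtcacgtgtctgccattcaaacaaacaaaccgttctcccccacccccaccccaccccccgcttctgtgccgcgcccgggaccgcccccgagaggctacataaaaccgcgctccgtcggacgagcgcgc
Maff, chr15:79347270-79347519, plus strand: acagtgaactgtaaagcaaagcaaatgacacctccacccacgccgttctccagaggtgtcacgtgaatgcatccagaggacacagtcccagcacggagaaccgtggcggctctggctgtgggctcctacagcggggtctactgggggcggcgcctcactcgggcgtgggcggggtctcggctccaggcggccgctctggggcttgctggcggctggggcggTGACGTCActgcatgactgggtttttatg
Replication genes had 32 windows, from 27 of 35 genes tested. At least 1 of the E2F site forms TTTGGCGC, TTTCCCGC and TTTCGCGC, which can overlap each other, was in 12 of them (37.5%), against 1.84% of all windows. Capitals mark these letters or their reverse complement in Orc1, the large subunit of the origin recognition complex, and in Mcm5 and Mcm7, subunits of the replicative helicase. The Mcm5 run holds 2 overlapping sites.
Orc1, chr4:108579204-108579453, plus strand: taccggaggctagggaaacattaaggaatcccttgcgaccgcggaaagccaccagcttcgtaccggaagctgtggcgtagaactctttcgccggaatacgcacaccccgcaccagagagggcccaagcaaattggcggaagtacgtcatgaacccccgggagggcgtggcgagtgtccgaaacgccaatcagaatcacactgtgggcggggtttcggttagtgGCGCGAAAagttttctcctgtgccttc
Mcm5, chr8:75109259-75109508, plus strand: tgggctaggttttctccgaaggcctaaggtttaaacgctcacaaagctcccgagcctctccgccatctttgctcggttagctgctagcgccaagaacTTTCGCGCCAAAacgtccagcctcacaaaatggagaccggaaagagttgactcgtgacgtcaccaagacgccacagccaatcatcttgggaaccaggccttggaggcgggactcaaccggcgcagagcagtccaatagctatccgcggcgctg
Mcm7, chr5:138171884-138172133, minus strand: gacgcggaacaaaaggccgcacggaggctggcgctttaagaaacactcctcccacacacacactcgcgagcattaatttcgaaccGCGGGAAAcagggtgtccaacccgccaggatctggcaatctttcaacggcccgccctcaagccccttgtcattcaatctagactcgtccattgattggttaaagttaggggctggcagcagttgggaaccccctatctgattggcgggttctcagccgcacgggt
A match is a run of letters and not a measured binding site. Of the 12 replication genes with a match, 8 rose after OHT in WT, and of the 15 with a window but no match, 8 rose as well. Of the 2 immediate early genes with a CArG box 1 fell, and of the 14 with a window but no box 11 fell. For the cAMP response element 2 of 3 genes with a match fell, and 10 of 13 without.

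Library totals ran from 34583317 to 64808897 counts over the 4 WT mESC libraries, and the 2 libraries of a group had a correlation of log2 CPM (counts scaled to the library size) of 0.994 after OHT and 0.995 before. The mESC markers Pou5f1, Sox2, Nanog, Zfp42, Esrrb, Klf4, Tfcp2l1 and Dppa5a summed to 5792 and 5694 CPM after OHT and to 4759 and 4966 CPM before. Tfcp2l1 made up the largest part, with 2197 and 1965 CPM after and 1637 and 1749 CPM before. Dppa5a, with 534 and 530 CPM after and 593 and 566 CPM before, and Klf4 were lower after OHT. Sox2 overlapped, and the rest were higher. Of the 8 fibroblast markers, Fn1, which had 2098 to 2364 CPM, made up most of the sum. Thy1 had 5.26 to 5.70 CPM and Col1a1 1.41 to 1.60 CPM, while Col1a2 and Col3a1 had 0 or 1 count in each WT library, Postn and Dcn 0 or 1 count and Lum 0 to 3 counts. The library of line 5.3 after OHT stood apart from the other 3 in several measures that are given beside the results they touch. Rif1, a chromatin protein that sets replication timing and is the gene the series deletes, had 1537 and 1752 CPM in WT before OHT and 1605 and 1455 CPM after. The values overlapped, and the log2 fold change was -0.10 ± 0.08 (SE, adjusted p = 0.27). With a correction for GC content and transcript length it was -0.13, with an adjusted p of 0.048. In the Rif1F/F lines Rif1 fell from 1172 and 1172 CPM to 702 and 662 CPM (log2 fold change -0.78), so much of the signal over the whole gene remained. No count of the deleted part was used here, and the deletion is taken from the labels; the change in WT differed from that by 0.68 ± 0.11 (adjusted p = 9.85e-04).

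OHT treatment and the conditions that came with it changed many genes of the WT lines. At an adjusted p under 0.05 in edgeR's quasi-likelihood test, 4264 genes were higher (24.9% of those tested) and 4138 lower (24.2%), 49.1% in all. Most changes were small: 456 genes rose at least 2-fold (2.66%) and 1604 fell at least 2-fold (9.37%). For 73.3% of genes the 2 libraries after OHT did not overlap the 2 before it, with both higher for 36.2% and both lower for 37.1%. The changes of lines 5.3 and 5.16, each taken within its line, had the same sign for 79.5% of genes, with a Pearson correlation across genes of 0.755, and genes are not independent replicates. Whether any 1 gene was changed by the drug, by Cre, by time in culture or by the flow cell cannot be told apart.

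The direction of change followed the level of a gene. In the lowest of 5 equal groups of genes by mean log2 CPM, 189 rose and 922 fell, and the median log2 fold change was -0.50. In the highest group 1604 rose and 400 fell, with a median of 0.15. Both lines showed this, with medians of -0.41 and -0.39 in the lowest group. The Rif1F/F medians went from -0.21 to 0.06. A trend with transcript GC content was mostly in line 5.3: in the highest of 5 equal groups by GC content its median change was -0.44, against -0.10 in line 5.16 and -0.08 in the fit of the Rif1F/F lines. Of the lists described here, those whose median member lies in the highest level group are naive and core pluripotency, LIF and STAT3 targets, SREBP regulators and lipid uptake, NRF2, the unfolded protein response, p53 targets, double-strand-break repair, replication, G1/S and G2/M genes, glycolysis, DNA methylation, heterochromatin and KAP1 silencing, and Polycomb. Their counts of raised genes stand beside the 1604 of 3423. In the next highest level group, which holds the median member of the heat shock and respiratory chain lists, 1232 of 3423 rose and 653 fell. The part of level and GC content in the counts of each gene group was not tested, and the median over all genes was 0.00.

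**Figure D1:**
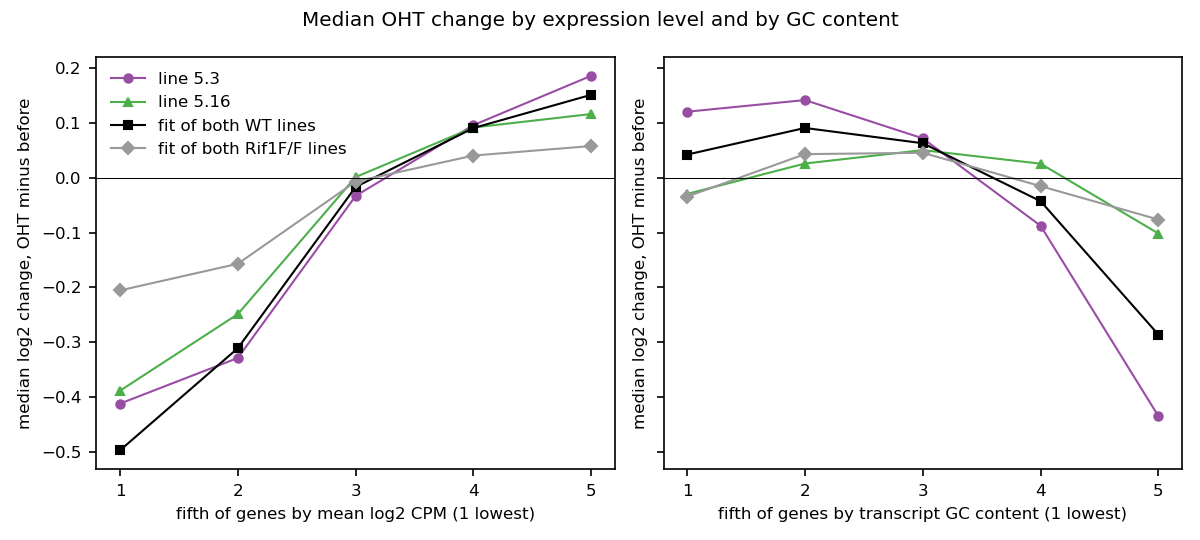
Median log2 change after OHT (y axis) in each of 5 equal groups of the genes tested, ordered from lowest to highest mean log2 CPM over 12 libraries (left) or transcript GC content (right), for line 5.3, line 5.16, the fit of both WT lines and the fit of both Rif1F/F lines. All curves rise with level, and the lowest point for GC content is the -0.44 of line 5.3 in the highest group.

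Among genes with a mean log2 CPM of at least 1 over the 12 libraries, Pkhd1, which encodes the fibrocystin of renal and biliary cilia, rose most. It had 0.422 and 0.534 CPM before OHT and 4.93 and 14 CPM after, a log2 fold change of 4.29 ± 0.47 (adjusted p = 2.9e-06). Apob, the apolipoprotein of liver and yolk sac lipoproteins, went from 1.06 and 0.928 CPM to 7.11 and 29.4 CPM (4.19 ± 0.54). In both genes line 5.16 ended several times higher than line 5.3. Ano1, a calcium-activated chloride channel, was more even, with 5.30 and 6.89 CPM before and 50.6 and 41.5 CPM after (2.92 ± 0.27). The proto-oncogene Myc had 0.818 and 1.55 CPM before and 7.82 and 6.01 CPM after (2.56 ± 0.25), and the D-type cyclin Ccnd2 had 4.30 and 2.11 CPM before and 18.9 and 15.7 CPM after (2.43 ± 0.22). Samd9l rose by 2.79, Dgkk, an X-linked diacylglycerol kinase, by 2.35, Akr1b8, an aldo-keto reductase, by 2.07 and Prmt8, an arginine methyltransferase, by 1.98. Rprl3, a small RNA gene related to the RNA of RNase P, rose by 2.24. For Lars2, the mitochondrial leucyl-tRNA synthetase, the change rested largely on 1 library. It had 319 and 206 CPM before, 9230 CPM in line 5.3 after OHT and 871 CPM in line 5.16. Its log2 fold change of 4.26 ± 0.87 became 1.75 (adjusted p = 0.022) without the library of line 5.3 after OHT, in which it took 0.869% of all counts.

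The gene with the largest fall among those with the same minimum level was Scand1, a short SCAN-domain gene, at 15.6 and 14.7 CPM before OHT and 0.213 and 1.48 CPM after (-4.21 ± 0.43, adjusted p = 1.5e-06). The unnamed transcript 4930413G21Rik fell by 4.11. Dll1, a Notch ligand, had 17.0 and 12.8 CPM before and 1.03 and 1.18 CPM after (-3.76 ± 0.30). Nrtn, the GDNF-family ligand neurturin, fell by 3.15, and by 1.79 with the correction for GC content and length, while without the library of line 5.16 after OHT it fell by 5.78. Gadd45g, a stress-response gene, fell by 2.99, the endothelial lipase Lipg by 2.90, and Adssl1, a purine enzyme of muscle, by 2.68, from 19.8 and 16.3 CPM to 2.61 and 3.05 CPM. Hist1h2ba, a histone H2B known from testis, went from 153 and 162 CPM to 12.8 and 39.2 CPM (-2.61 ± 0.33). The long noncoding RNA Lincenc1 met the rule only through the Rif1F/F lines: it had 18 and 21 counts before OHT in WT and 6 and 2 after, against 5259 and 5368 counts in the Rif1F/F lines before OHT. Its WT change of -2.85 rests on those few counts. Over the 4 WT mESC libraries alone the mean log2 CPM was also under the minimum for Dgkk (-0.44), which reached it through embryoid bodies and the Rif1F/F lines, and, less far, for Nrtn (0.84) and 4930413G21Rik (0.97). The rule for naming these lowered genes required both libraries after OHT to lie under both before. Line 5.3 ended several times lower than line 5.16 after OHT for Scand1, 4930413G21Rik and Nrtn.

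**Figure D2:**
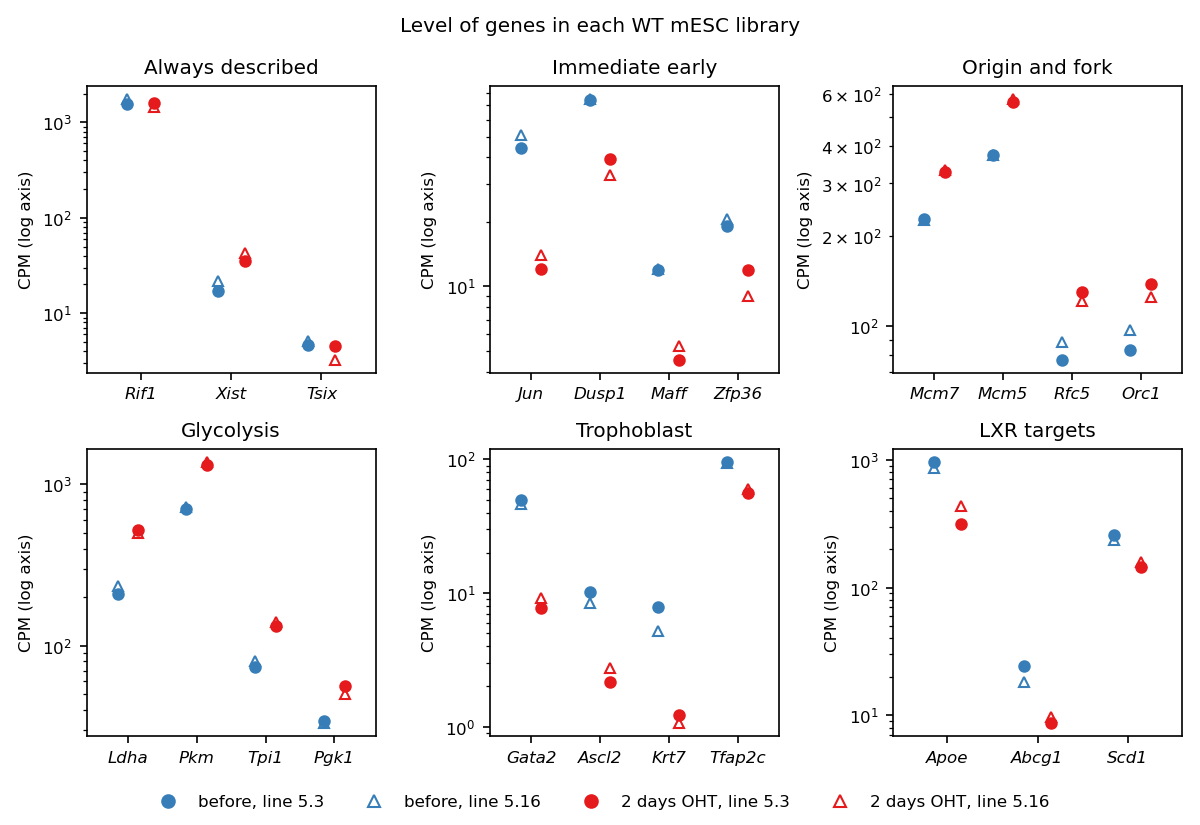
CPM on a log axis of named genes in each of the 4 WT mESC libraries, with circles for line 5.3, triangles for line 5.16, blue before OHT and red after 2 days of OHT. For Jun, Gata2 and Apoe both red points lie under both blue points, for Mcm5, Ldha and Xist above them, and for Rif1 they overlap.

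Most immediate early genes were lower in WT after OHT. Of 20 tested, 13 fell and 0 rose, against 24.2% of all genes falling, and the median log2 fold change was -0.88. Jun, an AP-1 subunit, had 44.1 and 50.8 CPM before OHT and 12.1 and 14 CPM after (-1.86 ± 0.14, adjusted p = 1.5e-07). Dusp1 had 74.6 and 75.0 CPM before and 39.5 and 33.2 CPM after (-1.04 ± 0.11), Maff 11.9 and 12.1 CPM before and 4.54 and 5.26 CPM after (-1.29 ± 0.17), and Zfp36 19.2 and 20.7 CPM before and 12 and 9.0 CPM after (-0.92 ± 0.12). Groups did not overlap in any of these, as was so for 73.3% of all genes tested. Egr1, a zinc finger factor of the same class, did not pass: it had 16.1 and 34.8 CPM before, and 28.3 CPM in line 5.3 and 4.63 CPM in line 5.16 after (-0.61 ± 0.48, adjusted p = 0.31). Nor did Ier2 (0.06, adjusted p = 0.73) or Egr2 (-0.83, adjusted p = 0.21). Line 5.3 had a median change over the list of -0.45 and line 5.16 of -1.22. Without the library of line 5.3 after OHT 16 fell and 0 rose, and with the correction for GC content and length 13 fell and 1 rose. Among the Rif1F/F lines' calls 16 of the 20 fell and 0 rose, with a median of -1.16.

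Other targets of growth signals were mixed. Among 26 genes of MAP kinase feedback 9 rose and 8 fell. Dusp4, an ERK phosphatase, had 22.4 and 17.5 CPM before and 4.21 and 5.59 CPM after (-2.03 ± 0.18), while Etv5, an ETS factor downstream of ERK, rose from 157 and 174 CPM to 296 and 286 CPM (0.81 ± 0.07). Of 18 LIF and STAT3 targets 4 rose and 9 fell. Socs3, the feedback inhibitor of STAT3, had 102 and 89.1 CPM before and 57.5 and 58.7 CPM after (-0.72 ± 0.08), and the adhesion molecule Icam1 fell by 0.71 and the kinase Pim1 by 0.58. Of 16 BMP and Id targets 5 rose and 9 fell. Id2, an inhibitor of basic helix-loop-helix factors, had 50.2 and 48.7 CPM before and 14.5 and 15.9 CPM after (-1.70 ± 0.09), and the ligand Bmp7 fell by 1.35, while the ligand Bmp4 rose from 1.93 and 2.36 CPM to 6.59 and 6.36 CPM (1.60 ± 0.18). Wnt and beta-catenin targets had 4 of 16 higher and 2 lower, or 1 lower without either library of line 5.3. Of these Notum, which encodes an enzyme that inactivates Wnt ligands, had 10.9 and 15.7 CPM before and 28.6 and 34.0 CPM after (1.24 ± 0.16). Lgr5, of the same list, fell, with 45 and 35 counts before and 4 and 0 counts after.

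Most genes of DNA replication were higher. Of 35 genes of the replication origin and fork 23 rose and 1 fell, against 24.9% of all genes rising, with a median log2 fold change of 0.28. Mcm7 had 228 and 227 CPM before OHT and 328 and 332 CPM after (0.54 ± 0.06, adjusted p = 5.4e-06). For Mcm5 the values were 373 and 373 CPM before and 564 and 575 CPM after (0.61 ± 0.08). Orc1 went from 83.1 and 97.2 CPM to 139 and 125 CPM (0.55 ± 0.08), and Rfc5, a subunit of the clamp loader, from 77.0 and 88.3 CPM to 130 and 121 CPM (0.61 ± 0.08). The groups of 2 were separate in all 4 genes, as for 73.3% of all genes tested, with changes well under 2-fold. Of 20 G1/S genes 14 rose and 0 fell. Cyclin E1 (Ccne1) had 113 and 114 CPM before and 189 and 168 CPM after (0.66 ± 0.07), thymidylate synthase (Tyms) 22.4 and 27.5 CPM before and 45.4 and 41.1 CPM after (0.80 ± 0.10), the flap nuclease Fen1 rose by 0.53 and the mismatch repair gene Msh6 by 0.48. The median member of both lists is highly expressed (mean log2 CPM of 6.87 and 7.11), and in the highest of the 5 groups of all genes by level 1604 of 3423 rose. With the correction for GC content and length 18 replication genes rose and 2 fell, 17 rose and 1 fell without the library of line 5.3 before OHT, and 26 rose and 3 fell without that of line 5.16 after.

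Of 25 G2/M genes 9 rose and 3 fell, or 1 fell without either library of line 5.16, and the number that rose was 6 without the library of line 5.3 after or before OHT and 13 without that of line 5.16 after OHT. Kif20a, a mitotic kinesin, had 232 and 235 CPM before and 337 and 300 CPM after (0.45 ± 0.07), and the mitotic kinase Cdk1 rose by 0.32 and the survivin gene Birc5 by 0.33. For the Rif1F/F lines 1 of the 25 rose and 13 fell. The test of the difference was passed by 10 of the 25, all with the higher change in WT, against 3.79% of all genes in that direction.

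The replication-dependent histones, whose mRNAs have no poly(A) tail, differed between the lines. Of 58, 5 rose and 24 fell, with a median change of -0.82 in line 5.3 and -0.15 in line 5.16. Hist1h2bg had 115 and 123 CPM before OHT, 22.9 CPM in line 5.3 after and 50.9 CPM in line 5.16 (-1.69 ± 0.23), whereas Hist2h2bb rose from 223 and 248 CPM to 469 and 438 CPM (0.95 ± 0.07) and the linker histone Hist1h1a from 359 and 411 CPM to 620 and 625 CPM (0.69 ± 0.08). Near-identical copies may share reads. Without the library of line 5.3 after OHT 13 histones rose and 17 fell, and without that of line 5.16 after OHT 3 rose and 39 fell. The number that rose was also 3 without line 5.3 before OHT. With the replicate number, here the line, as a block, 31 fell, by DESeq2's Wald test 13 fell, and with the correction for GC content and length 12 rose and 22 fell. The Rif1F/F lines had 19 higher and 3 lower.

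In both pluripotency lists more members rose than fell. In the naive list 12 of 25 rose and 4 fell, with a median of 0.19, or 0.30 without the library of line 5.16 before OHT, and in the core list 7 of 13 rose and 2 fell, or 1 fell without line 5.3 after OHT or line 5.16 before. In the highest level group of all genes, where the median members of both lists lie, 1604 of 3423 rose. Nanog, a core factor, had 612 and 612 CPM before and 971 and 882 CPM after, and Klf4 had 306 and 356 CPM before and 234 and 276 CPM after. Tdh, the threonine dehydrogenase mESC depend on, had 230 and 266 CPM before and 480 and 483 CPM after (0.96 ± 0.10), and Dppa2 rose by 0.97 and the lysosomal enzyme Manba by 1.04. The RNA-binding protein gene L1td1 rose from 188 and 225 CPM to 434 and 389 CPM (1.00 ± 0.09) and Sall4 by 0.55. Dnmt3l, the cofactor of de novo DNA methylation, had 61.1 and 56.9 CPM before and 150 and 140 CPM after (1.30 ± 0.07, adjusted p = 1.9e-09). The de novo methyltransferase Dnmt3b had 78.9 and 79.0 CPM before and 154 and 145 CPM after (0.92 ± 0.07). Both formed tight pairs of libraries. Among 18 genes of DNA methylation and demethylation 6 rose and 4 fell, with the dioxygenase Tet2 higher by 0.86 and Gadd45b lower by 1.73. Formative and primed epiblast genes had 5 of 21 higher and 6 lower, with 3 lower without the library of line 5.3 before OHT and 3 higher without that after.

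Of 26 genes of heterochromatin and KAP1 silencing, which keep retroviral repeats silent, 15 rose, 3 fell and 8 did not pass (median 0.21). The median member had a mean log2 CPM of 7.51, in the level group of all genes where 1604 of 3423 rose, and 1 in place of 3 fell without either library of line 5.3 or that of line 5.16 before OHT. Trim28, which encodes KAP1, the corepressor that zinc finger proteins bring to repeats, had 1424 and 1457 CPM before and 2383 and 2282 CPM after (0.70 ± 0.07, adjusted p = 1.7e-06). The zinc finger gene Zfp809, whose product binds proviral DNA, rose by 0.59, the histone demethylase gene Kdm1a by 0.57 and Morc2a by 0.47. Of 356 genes with a Zfp symbol 111 rose and 52 fell, and 73 rose and 43 fell without the library of line 5.3 before OHT. The median change of these 356 genes was 0.21 in line 5.3 and 0.03 in line 5.16. Their median transcript GC content was 44.8%, and the trend with GC content was mostly in line 5.3. Its part in these counts was not tested. Zfp936 had 21.7 and 33.8 CPM before and 77.5 and 62.6 CPM after (1.34 ± 0.15), Zfp459 rose by 1.05, Zfp518b by 1.03 and Zfp369 by 0.86. The same list in the Rif1F/F lines had 62 that rose and 95 that fell, and the difference between the responses was called higher in WT for 53 and lower for 12, against 3.79% and 4.07% of all genes. Polycomb genes were split, with 12 of 32 higher and 9 lower, or 9 higher and 5 lower without the library of line 5.3 after OHT.

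Lineage regulators, most of them expressed at low levels, leaned lower in the trophoblast and neuroectoderm lists, with negative median changes in both lines. Of 14 trophoblast genes 3 rose and 6 fell. Gata2, a transcription factor of trophoblast and blood, had 49.9 and 46.7 CPM before and 7.65 and 9.14 CPM after (-2.53 ± 0.11, adjusted p = 5.1e-10), the smallest adjusted p for a WT change given here. The keratin Krt7 had 7.83 and 5.17 CPM before and 1.23 and 1.06 CPM after (-2.50 ± 0.24), Ascl2 fell by 1.94 and Tfap2c by 0.70. These were named for their small adjusted p, and the 3 trophoblast genes that rose are not named. Of 21 primitive endoderm genes 4 rose and 8 fell, and 2 rose without the library of line 5.16 before OHT. The median change of the primitive endoderm list was -0.40 in line 5.3 and 0.02 in line 5.16. In the fit it was -0.09, or 0.07 without the library of line 5.3 before OHT. Gata6 went from 7.15 and 3.85 CPM to 1.00 and 1.02 CPM (-2.44 ± 0.30), Gata4 fell by 1.05 and Amn, a subunit of the cobalamin receptor, by 2.21. The 4 primitive endoderm genes that rose are not named. Neuroectoderm genes had 1 of 12 higher and 6 lower, but 2 lower without the library of line 5.3 before OHT. The neuronal tubulin Tubb3 was the one that rose, from 14.8 and 12.3 CPM to 49.0 and 52.8 CPM (1.91 ± 0.12), and the intermediate filament gene Nes fell by 0.46. Mesendoderm genes were split, with 5 of 17 higher and 4 lower: Nodal rose from 57.2 and 66.8 CPM to 119 and 119 CPM (0.94 ± 0.10) and Tbx6 fell by 1.70. Cdx2, of the mesendoderm list, rose from 4 and 7 counts before OHT to 46 and 53 counts after. The median member had a mean log2 CPM of 0.71 in the neuroectoderm, 2.59 in the trophoblast and 2.62 in the primitive endoderm list. All lie in the level group of all genes where 1216 of 3423 fell. Feeder fibroblast markers had 2 of 14 higher and 2 lower, or 1 and 1 without line 5.3 after OHT. In bulk RNA fewer cells of a type and less RNA per cell cannot be told apart.

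In the lists of genes that answer to sterols and xenobiotics more members fell than rose. Of 11 targets of the liver X receptors (LXR), nuclear receptors for oxysterols, 1 rose and 7 fell, or 2 and 5 without the library of line 5.3 after OHT. Apoe, an apolipoprotein, had 952 and 865 CPM before and 317 and 435 CPM after (-1.27 ± 0.13, adjusted p = 1.2e-06). Abcg1, a cholesterol exporter, had 24.5 and 18.3 CPM before and 8.70 and 9.71 CPM after (-1.22 ± 0.14). Scd1, a fatty acid desaturase, went from 256 and 235 CPM to 145 and 160 CPM (-0.69 ± 0.08). Of the same 11, 2 rose and 6 fell in the Rif1F/F lines. Of 21 SREBP regulators and lipid uptake genes, a list that also holds Scd1, 2 rose and 9 fell, with 5 lower without the library of line 5.3 before OHT. Insig1, a sterol sensor partner, fell by 0.45 and Scd2 by 0.50. Cholesterol biosynthesis itself was near the background, with 3 of 20 higher and 4 lower and a median of -0.10, which was 0.05 without the library of line 5.3 after OHT. Pmvk, the phosphomevalonate kinase, fell by 0.52. Dhcr7 fell by 0.42, a call that ended without the library of line 5.3 before OHT (-0.27, adjusted p = 0.05). Lowered genes in this list numbered from 1, without line 5.3 before OHT, to 8 over the settings tried, and 7 without line 5.16 after OHT.

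Of 16 genes of xenobiotic metabolism 2 rose and 7 fell. Targets of the aryl hydrocarbon receptor were among them: Cyp1a1, whose mean log2 CPM was 0.23 over the 4 WT mESC libraries, had 2.61 and 3.40 CPM before and 0.492 and 0.328 CPM after (-2.85 ± 0.28), its repressor gene Ahrr 3.93 and 3.63 CPM before and 1.03 and 1.02 CPM after (-1.88 ± 0.23), and Cyp1b1 fell by 1.88. The glutathione transferase Gsta4 rose by 0.52. Oestrogen-responsive genes had 4 of 17 higher and 5 lower, or 2 lower without the library of line 5.3 before OHT and 3 lower without that after. Esr1, the gene of oestrogen receptor alpha, had 23.7 and 27.5 CPM before and 48.6 and 40.2 CPM after (0.80 ± 0.09, adjusted p = 5.0e-06), and Krt19 had 0.422 and 0.197 CPM before and 1.64 and 2.43 CPM after (2.68 ± 0.35). Myb fell by 0.86 and Wfdc2 by 0.58, and Greb1 did not pass (-0.33, adjusted p = 0.083).

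Stress programs went in different directions. NRF2, the factor that answers oxidative stress, had 12 of 22 targets higher and 2 lower, and 11 or 12 rose under every setting tried. Hmox1, haem oxygenase, had 38.5 and 38.4 CPM before and 66.9 and 67.6 CPM after (0.81 ± 0.06, adjusted p = 1.6e-07). Srxn1 had 35.3 and 42.8 CPM before and 81.8 and 69.6 CPM after (0.96 ± 0.11), and Pgd of the pentose phosphate pathway rose by 0.78. The NRF2 target Nqo1 did not pass (0.14, adjusted p = 0.19). In the unfolded protein response 12 of 21 rose and 2 fell, and 8 rose without line 5.16 before OHT, with Hspa5, the chaperone BiP, at 509 and 526 CPM before and 925 and 788 CPM after (0.73 ± 0.08), and Manf and Pdia4 higher by 0.52 and 0.43. Heat shock genes had 11 of 18 higher and 4 lower, with Hsph1 higher by 0.70 and Chordc1 by 0.85. The integrated stress response was split, with 11 of 33 higher and 9 lower, or 7 and 8 without the library of line 5.16 before OHT. Ddit3, the factor CHOP, had 18.9 and 12.8 CPM before and 5.46 and 5.40 CPM after (-1.54 ± 0.16), Nupr1 fell by 1.54, and Cebpb fell by 2.20, or by 1.30 with the correction for GC content and length, while the tryptophanyl-tRNA synthetase gene Wars rose by 0.51.

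The p53 targets were split, with 9 of 33 higher and 10 lower. Rrm2b, a ribonucleotide reductase subunit, had 39.0 and 40.2 CPM before and 20.7 and 21.3 CPM after (-0.92 ± 0.08), and the damage sensor Ddb2 fell by 0.71, while Tigar rose by 0.87 and Bax by 0.61, or by 1.20 with the correction for GC content and length. The cell cycle inhibitor Cdkn1a did not pass (-0.17, adjusted p = 0.087). Double-strand-break repair had 9 of 24 higher and 4 lower, or 4 and 2 without the library of line 5.3 before OHT and 10 and 1 without that of line 5.16 before, with Paxip1 and Atm higher by 0.42 and 0.36. Of 30 genes of interferon and RNA sensing 6 rose and 7 fell. The RNA sensor Ddx58 had 8.07 and 9.42 CPM before and 18.5 and 17.0 CPM after (1.02 ± 0.10), while B2m fell by 0.60.

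In energy metabolism glycolysis had 11 of 22 higher and 5 lower. Ldha, lactate dehydrogenase, had 210 and 233 CPM before and 522 and 497 CPM after (1.20 ± 0.10, adjusted p = 2.7e-07). Pkm, pyruvate kinase, had 703 and 721 CPM before and 1315 and 1368 CPM after (0.91 ± 0.09), Tpi1 rose by 0.83 and Pgk1 by 0.67. The 4 genes rose in the Rif1F/F lines as well, by 0.76 to 1.11. Of 92 nuclear genes of the respiratory chain 36 rose and 6 fell, against 24.9% of all genes rising and 24.2% falling. Their median log2 fold change was 0.16, or 0.11 without line 5.16 after OHT. The median member had a mean log2 CPM of 5.91, in the level group of all genes where 1232 of 3423 rose. The ATP synthase subunits Atp5h and Atp5o were higher by 0.66 and 0.54. Hypoxia targets had 5 of 20 higher and 7 lower, or 3 and 4 without the library of line 5.3 before OHT: Vegfa, a growth factor of vessels, went from 89.0 and 85.4 CPM to 50.8 and 55.1 CPM (-0.72 ± 0.08) and Bhlhe40 fell by 1.04. Kdm3a and Jmjd6, also hypoxia targets, rose. Cytoplasmic ribosomal protein genes were near the background, with 17 of 86 higher and 20 lower. Of 90 small nucleolar RNAs 20 rose and 10 fell, against 14 and 15 with the correction for GC content and length. Without the library of line 5.3 before OHT 13 rose and 6 fell, and without that of line 5.16 before 17 and 4. As most lie in introns of other genes their reads may be shared with a host.

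**Figure D3:**
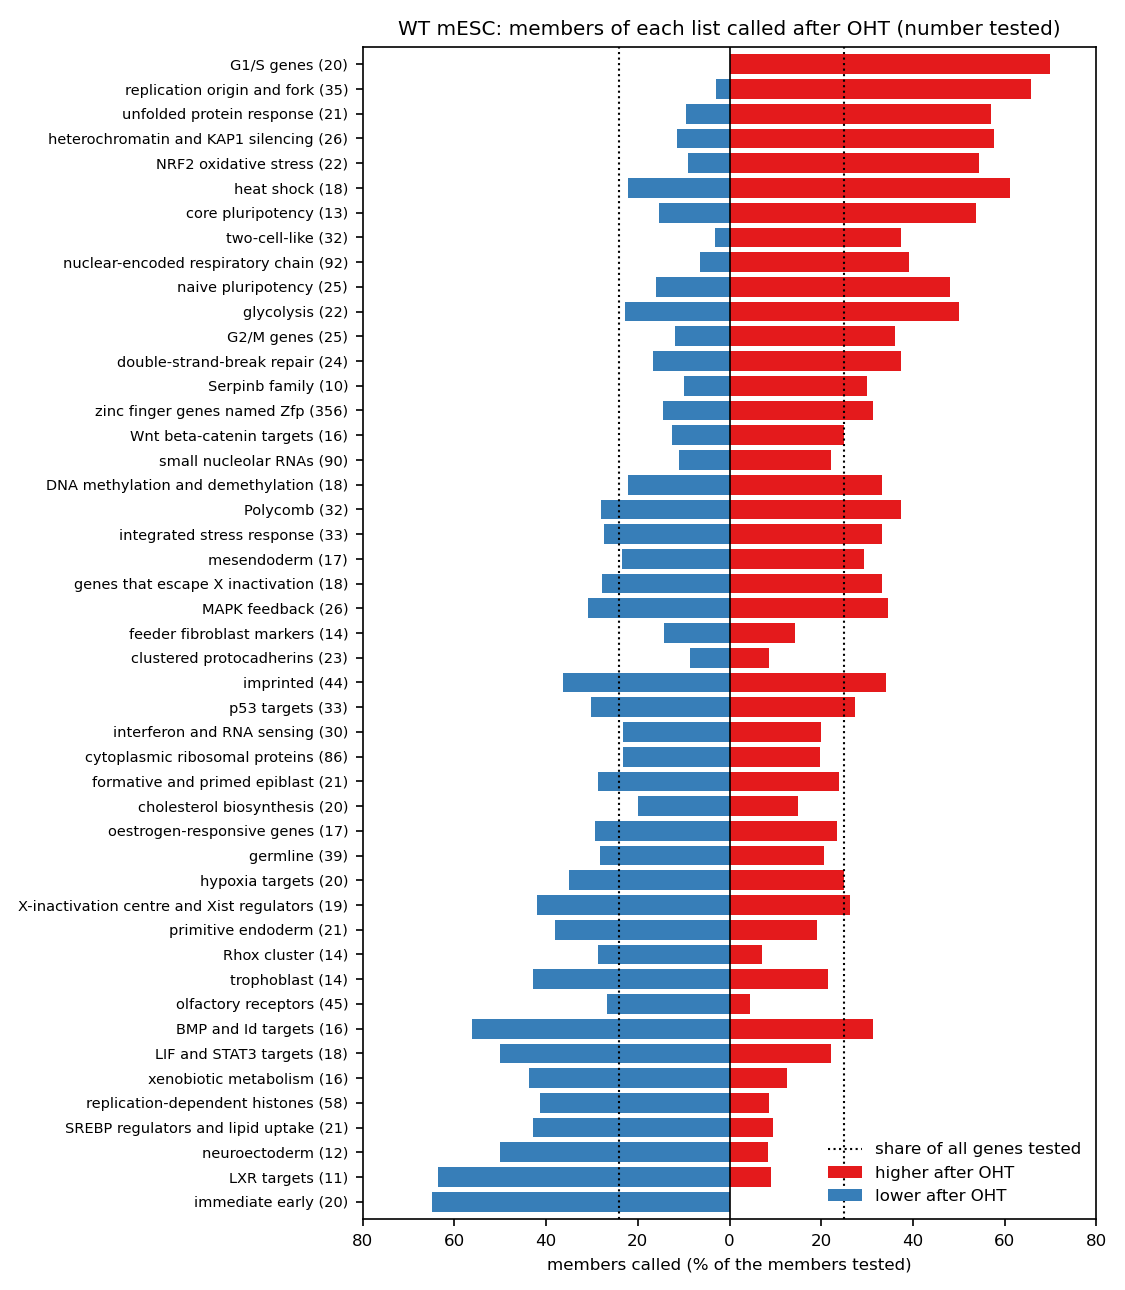
For each gene list with at least 10 members tested (number in brackets), the percent of members called higher (red, right) and lower (blue, left) in WT after OHT, at an adjusted p under 0.05. Dotted lines mark the shares over all genes tested, 24.9% higher and 24.2% lower. G1/S genes have the longest red bar and immediate early genes the longest blue bar.

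Xist, the RNA that coats and silences one X chromosome of female cells, rose in WT. It had 17.0 and 21.8 CPM before OHT and 35.1 and 42.6 CPM after, which is 1.01 ± 0.15 on the log2 scale (adjusted p = 5.4e-05). In the Rif1F/F lines it had 35.2 and 27.4 CPM before and 30.5 and 21.4 CPM after (-0.28, adjusted p = 0.16), and the change in WT was higher by 1.28 ± 0.22 (adjusted p = 0.0018). WT started lower and ended higher than the Rif1F/F lines. Tsix, the antisense RNA that restrains Xist, had 4.70 and 5.06 CPM before and 4.54 and 3.26 CPM after (-0.32 ± 0.18, adjusted p = 0.15), and passed at -0.56 (adjusted p = 0.030) without the library of line 5.3 after OHT and at -0.40 (adjusted p = 0.0498) with the correction for GC content and length. No source used here says whether reads were counted by strand, and without it reads from Xist and its antisense partner cannot be told apart. Rlim, which encodes an E3 ligase that activates Xist, had 589 and 592 CPM before and 409 and 416 CPM after (-0.52 ± 0.06). In the list of the X-inactivation centre and Xist regulators 5 of 19 rose and 8 fell. Without the library of line 5.3 before OHT 2 rose and 7 fell, without that of line 5.16 before 6 and 5, and without line 5.3 after 4 and 5. The adaptor gene Rbm15 fell by 0.41 and Ciz1 by 0.66.

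X-linked genes leaned lower. Of 679 tested, 110 rose (16.2%) and 194 fell (28.6%), against 25.3% and 24% of 16399 autosomal genes, and the median log2 fold change was -0.09 against 0.00. X-linked reads came to 5.31% and 5.40% of the autosomal counts before OHT and to 5.04% and 5.06% after, so the groups did not overlap. In the Rif1F/F lines 200 X-linked genes rose (29.5%) and 133 fell (19.6%), against 21.9% and 21.6% of autosomal genes, with a median of 0.06. Their X-linked reads came to 5.07% and 4.91% of the autosomal counts before OHT and to 5.05% and 4.78% after, values that overlap. Genes that escape X inactivation had 6 of 18 higher and 5 lower, but 0 higher and 3 lower without the library of line 5.3 before OHT and 1 higher and 2 lower without that of line 5.3 after. Leaving out either library of line 5.16 gave 3 lower, with 4 or 5 higher. Allele-specific counts were not used here, so the 2 X chromosomes cannot be told apart.

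Genes of the germline were compared, and so were those of the 2-cell-like state, in which rare mESC express genes of the cleaving embryo. The latter are mostly at low levels. Of 39 germline genes 8 rose (20.5%) and 11 fell (28.2%), near the 24.9% and 24.2% of all genes tested. Their median member had a mean log2 CPM of 4.24. Sycp3, of the synaptonemal complex, had 33.1 and 29.1 CPM before and 11.5 and 11.5 CPM after (-1.43 ± 0.14), the meiotic cohesin gene Smc1b fell by 0.93 and Fkbp6 by 0.63, while Tex19.1 rose by 0.62. Germline genes called higher numbered 3 without the library of line 5.16 before OHT and 5 without any 1 of the other 3 WT mESC libraries. Of the 39, 24 rose and 9 fell in the Rif1F/F lines, and 22 of the 39 had a lower change in WT by the test of the difference, against 4.07% of all genes. Of 32 genes of the 2-cell-like list 12 rose and 1 fell, but most passed the filter on low counts only through other groups. In a fit of only the 4 WT mESC libraries 6 members were tested, of which 5 rose and 1 fell. Zscan4 and Usp17l genes have near-identical copies that may share reads. Most members were close to 0: Zscan4c, the defining gene of the state, did not pass, and 10 of the 32 were at 0 in both libraries of a WT group. Tmem92 had 1 and 0 counts before and 25 and 9 counts after. The number that rose was 6 without the library of line 5.3 after or before OHT, and 0 fell without either of line 5.16. Pramel7 was among the better expressed members, at 11.2 and 12.3 CPM before and 28.3 and 24 CPM after (1.15 ± 0.15). Of 14 genes of the X-linked Rhox homeobox cluster 1 rose and 4 fell (28.6%), against 24.2% of all genes falling. The median member had a mean log2 CPM of -1.52, in the lowest level group of all genes, where 922 of 3423 fell. Rhox6 had 10.9 and 10.4 CPM before and 3.28 and 1.79 CPM after (-2.05 ± 0.18), and Rhox9 was lower by 1.43. Rhox10 rose, from 5 and 4 counts before to 30 and 24 counts after.

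Imprinted genes, expressed from one parental allele, changed in both directions. Of 44, 15 rose and 16 fell, with 7 higher without the library of line 5.3 before OHT. Mest had 32.3 and 30.3 CPM before and 80.9 and 70.3 CPM after (1.27 ± 0.10), and the retrotransposon-derived gene Peg10 had 31.4 and 32.1 CPM before and 99.6 and 65.6 CPM after (1.38 ± 0.15). Both are expressed from the paternal allele. The maternally expressed long noncoding RNA Meg3 had 33.8 and 29.2 CPM before and 18.1 and 15.4 CPM after (-0.91 ± 0.10).

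The comparison most like this one is OHT treatment of the Rif1F/F lines, which had the same drug, CreERT, days and flow cells, and floxed Rif1 besides. There 3790 genes were higher (22.1%) and 3683 lower (21.5%), 43.7% in all, with 812 at least 2-fold higher (4.74%) and 1018 at least 2-fold lower (5.95%). Genes called in the same direction in both numbered 4824, which is 57.4% of the WT calls and 64.6% of the Rif1F/F calls, and 169 were called in opposite directions. No library is shared between these comparisons, but the flow cells are. The test of the difference between the responses called 649 genes with a higher change in WT (3.79%) and 697 with a lower one (4.07%), 7.86% in all, of which 45 (0.263%) and 364 (2.13%) differed at least 2-fold. Of these 1346 genes, 426 were called in WT and not in the Rif1F/F lines, 517 the other way round, and 228 in both in the same direction. The counts depended on single libraries: without line 5.3 before OHT 198 were higher and 312 lower, and without line 5.16 after OHT 1178 and 1362.

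Among genes with a mean log2 CPM of at least 1 over the 12 libraries, the 6 with the most negative difference were taken. Of these, 5 were called in the Rif1F/F lines and not in WT, and 4930550L24Rik rose in WT by 0.55. Rhox13, an X-linked homeobox gene, had 17.2 and 13.9 CPM before OHT in WT and 11.8 and 15.1 CPM after, so the groups overlapped (-0.22, adjusted p = 0.25). In the Rif1F/F lines it rose by 3.65, and the difference was -3.87 ± 0.27 (adjusted p = 3.25e-07). Slc25a31, a germ cell ADP/ATP carrier, was at 9.97 and 8.77 CPM before and 9.34 and 8.10 CPM after in WT (-0.10), with a difference of -3.82 ± 0.26. Asz1 and Nxf2, both germline genes, had WT changes of 0.11 and -0.36 that did not pass and differences of -3.38 and -3.43. In all 4 the Rif1F/F lines before OHT lay far under WT, at 0.24 to 0.80 CPM. The transcripts 4933416C03Rik and 4930550L24Rik had differences of -3.06 and -2.99, the former at a mean log2 CPM of 0.84 in WT mESC. The less expressed Rhox7a, under the minimum, differed by -3.58.

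Among genes with the same minimum level, higher changes in WT were led by Pkhd1, with a difference of 3.10 ± 0.63 (adjusted p = 0.0068). Egr1 differed by 2.77 ± 0.76 (adjusted p = 0.034), but by 0.92 (adjusted p = 0.28) without the library of line 5.3 after OHT. Onecut2, a homeobox gene, rose in WT from 2.16 and 1.94 CPM to 4.77 and 9.39 CPM (1.78 ± 0.35), did not pass in the Rif1F/F lines (-0.50, adjusted p = 0.23), and differed by 2.28 ± 0.48. The ETS factor Etv4 rose by 0.97 in WT and fell by 0.97 in the Rif1F/F lines, with a difference of 1.94 ± 0.44. The call on that difference ended without the library of line 16.9 after OHT (adjusted p = 0.069) or that of line 15.10 before (adjusted p = 0.070). Cnga3, a cyclic nucleotide-gated channel, rose by 1.68 in WT, where its mean log2 CPM was 0.08. The autophagy receptor Optn was at 45.5 and 57.0 CPM before and 53.9 and 55.1 CPM after in WT (0.09, adjusted p = 0.44), while in the Rif1F/F lines it went from 27.5 and 27.0 CPM to 8.43 and 9.21 CPM, a difference of 1.72 ± 0.14 (adjusted p = 1.47e-06).

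**Figure D4:**
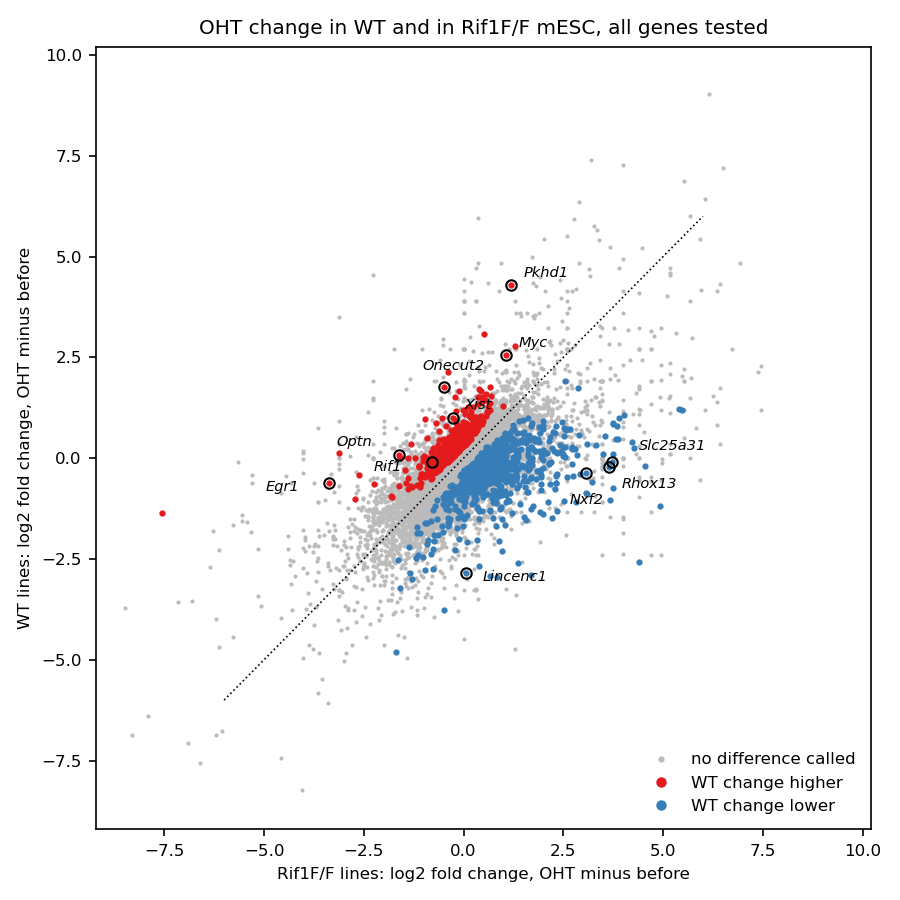
Log2 fold change after OHT in the Rif1F/F lines (x axis) and in the WT lines (y axis) for the 17115 genes tested; red points have a higher and blue points a lower change in WT at an adjusted p under 0.05 for the difference, grey points neither. Points on the dotted line changed alike; Pkhd1 and Optn lie above it, Rhox13 and Slc25a31 below it.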

How the data were processed

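RNA was sequenced in 12 libraries. The values the authors deposited are raw counts, whole numbers for each symbol. Per the submitters' processing notes, the tools were BWA, HTSeq and DESeq2 on build mm9; neither their versions nor their settings were given. Counts were tested here in R 4.3.3 with edgeR 4.0.16: the quasi-likelihood F test on 1 model of 6 groups over 12 libraries, TMM scaling, low counts removed by filterByExpr, and Benjamini-Hochberg adjustment at 0.05 over 17115 genes. Adjusted p-values are from this test on this model, except where another setting is named beside them. Levels are CPM of each library on TMM-scaled library sizes, and SE is that of the log2 fold change. The difference of responses is the contrast of the WT and Rif1F/F changes in the same model. The script was tested on simulated counts.

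Totals of the 4 WT mESC libraries were 64808897 and 52351634 after OHT and 37195345 and 34583317 before. The floor of 3 counts corresponds to 0.0492 to 0.0843 CPM there. Nothing in the labels says that lines were replicated, and the design text speaks of 1 technical replicate. The p-values rest on the spread between the 2 lines of a group, pooled over the 6 groups. These include the Rif1F/F lines and embryoid bodies. In a fit of only the 4 WT mESC libraries 3474 genes were higher and 3592 lower. Replicate numbers pair the samples because each number is a cell line. After OHT and before it, deviations of the same lines correlated at -0.147 in WT and 0.130 in the Rif1F/F lines.

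GC content, length and chromosome were matched by symbol to GRCm38 annotation, with GC content for 99.1% of genes tested, and promoters come from RefSeq (GRCm38.p6). No gene coordinates are given in mm9. The promoter motifs CArG, E2F and the cAMP response element were added after the data were seen. The part of the series, its gene lists and its tests were chosen with earlier results of these data known. A rule named Rif1, Xist and Tsix, the 12 genes with the largest change in each direction (adjusted p under 0.05, mean log2 CPM of at least 1 over 12 libraries, groups separate), the 6 per direction with the largest difference of responses, and up to 4 members per described list with the smallest adjusted p. Defining genes of a list that did not pass could be added. Lists can share members, so their counts are not independent. For example, Dusp1 is in the immediate early and MAP kinase feedback lists, and Gata2 in the BMP and trophoblast lists. Trim28 is in the core pluripotency and heterochromatin lists. Some genes that the rule names are not reported here. Alternatives were DESeq2 1.42.0 (size factors, and its Wald test), no filter, fewer libraries in the fit, the line as a replicate block, and leaving out each library. A correction for GC content and length and counts thinned to 28600870 per library were added after the data were seen.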

Additional observations from a re-analysis of the deposited data

Results flagged for a closer look

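The change after OHT differed between the WT and the Rif1F/F lines, by the test of that difference at an adjusted p under 0.05, for 48 of the genes named by the rule. Values are the WT change minus the Rif1F/F change on the log2 scale. Among the genes always described, the difference was 0.68 for Rif1 and 1.28 for Xist. Among those with the largest changes in WT it was 3.10 for Pkhd1, 1.50 for Samd9l, 1.50 for Myc, -1.71 for Gadd45g, -2.91 for Lincenc1, -1.51 for Cyp1a1 and -0.88 for Gata2. For genes chosen by the difference itself, among those with a mean log2 CPM of at least 1, it was 2.77 for Egr1, 2.28 for Onecut2, 1.94 for Etv4, 1.80 for Cnga3, 1.72 for Optn, -3.87 for Rhox13, -3.82 for Slc25a31, -3.43 for Nxf2, -3.38 for Asz1, -3.06 for 4933416C03Rik and -2.99 for 4930550L24Rik.

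Signal-response genes with a lower change in WT were Dusp4 (-1.15), Jun (-0.70), Id2 (-0.54), Cebpb (-0.84) and Insig1 (-0.37). The Wnt target Tnfrsf19 had a higher one (0.49), as had Wars (0.35). In the cell cycle the difference was 0.44 for Orc1, 0.37 for Kif20a, -0.53 for Hist2h2bb and -0.52 for Hist1h1a. In chromatin genes it was 0.32 for Dnmt3l, 0.42 for Dnmt3b, 0.41 for Zfp809, 0.54 for Zfp369 and 0.97 for Zfp936. Germline, 2-cell-like and imprinted genes gave 0.95 for Pramel7, 0.89 for Smc1b, -1.31 for Rhox6, -3.58 for Rhox7a, 0.71 for Peg10 and -0.53 for Meg3. For lineage and matrix genes it was -0.90 for Cdh2, -0.64 for Tubb3, -0.83 for Fbn1, -1.19 for Twist1, -0.65 for Col5a1 and -1.12 for Serpinb9b. Groups of 2 libraries are too small to test for a single library far from the others.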

How the results depend on the processing

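The counts of genes higher and lower in WT after OHT stayed within 1.5 times under all settings, at 3126 to 4149 higher and 2918 to 3966 lower when 1 WT library was left out (456 at least 2-fold higher became 352 to 495, and 1604 at least 2-fold lower 1275 to 1718). With the line as a replicate block 4129 genes were higher and 4054 lower, and the pairing changed 1 call among the genes named, that of Serpinb6e (adjusted p = 0.059). Because the lines' deviations correlated negatively, the block was also run with the 2 libraries before OHT crossed, which gave 4442 genes higher and 4281 lower in WT, and a difference of responses higher for 1019 and lower for 961. Leaving out WT libraries gave 17 to 26 replication genes higher, 10 to 13 G1/S genes higher, 11 to 16 immediate early genes lower and an X-linked median from -0.093 to -0.060. That median was -0.027 without the filter, -0.10 in a fit of only the 4 WT mESC libraries, -0.14 with the GC content and length correction, alone or with the replicate block, and -0.077 with thinned counts. The difference of responses was less stable. Without the filter 1093 genes were higher and 1125 lower in WT, 81 of the former at least 2-fold, and in a fit of only the 8 mESC libraries 260 and 445, with 29 at least 2-fold higher. Leaving out single libraries gave 198 to 1178 higher and 312 to 1362 lower, and 28 to 71 and 195 to 568 at least 2-fold. The cause was not tested. No named gene reversed. Without the library of line 5.3 before OHT 10 of 213 named results lost their call, and without line 5.3 after OHT 6. Depth limits genes near 3 counts per library, and the Egr1 difference ended its call under 7 settings, among them DESeq2's Wald test (adjusted p = 0.094).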
